A study of Mus musculus with 134 samples.

Results

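The genes described here, chosen by family and by the measured level of Lef1 in KO and in vitro libraries, were the 4 TCF/LEF transcription factors (Lef1, Tcf7, Tcf7l1 and Tcf7l2), beta-catenin (Ctnnb1) and the beta-catenin regulators Apc and Gsk3b, 7 of the 25209 genes in the bulk count files. They were named as a family, and the family was taken up because Lef1 had been seen to rise in Aebp2 knockout libraries, so the knockout contrast chose the members and is described below with no test for any of them. The level of Lef1 in unedited in vitro libraries was also part of the choice and is likewise given without a test.

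When a Wnt ligand binds its receptors, the destruction complex, in which the scaffold Apc and the kinase Gsk3b mark beta-catenin for degradation, is held back, and beta-catenin accumulates and enters the nucleus. There it binds TCF/LEF proteins, which sit on DNA through a CTTTG core and otherwise recruit corepressors. In mouse embryonic stem cells (mESCs) Tcf7l1 is known chiefly as a repressor of pluripotency genes, Tcf7 as an activator, and Lef1 as a factor that is itself often under Wnt control.

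The study developed SET-seq, which separates cytoplasmic RNA from nuclei and profiles RNA by Tn5 tagmentation of RNA/cDNA hybrids and a histone mark by directed tagmentation in the same cells. All cells were labelled E14 mESCs of strain 129/Ola at day1, and the study's methods name the line ES-E14TG2a. The 54 bulk expression libraries were 2 replicates of each of 27 conditions, and 16 further expression samples were single-cell experiments on unedited cells given Wnt3a-coated beads for 12 h, in which the daughter cells proximal and distal to a bead were picked in pairs.

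The 28 in vitro libraries tagmented RNA of unedited, untreated cells and varied the Tn5 amount (25, 50 and 100 ng/ul), the RNA amount (300 ng, 3 ng and 30 pg) or the temperature (16 C and 37 C) and time (5, 10, 15 and 30 min). A further 2 libraries were made from unedited, untreated cells by ligation-based RNA-seq. The unedited, untreated SET-seq libraries were 8 with no antibody on the nuclei (10, 100, 1000 and 10000 cells), 6 with an H3K4me3 and 6 with an H3K27me3 antibody (100, 1000 and 10000 cells each), called co-assays below. The 4 knockout (KO) libraries were untreated H3K27me3 SET-seq expression libraries of 2 clones, KO1 and KO2, with 2 replicates each and no cell number in the labels. Each KO line was 1 clone made with CRISPR/Cas9, so a clone and its edit cannot be told apart. The study describes independent experiments for each KO line and biologically independent libraries for the in vitro temperature and time conditions. Where the labels and methods do not say that replicates were separate cultures, p-values may measure only technical spread.

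Library totals ran from 235040 to 21520982 counts. The ribosomal precursor Rn45s took 1.54% to 84.6% of them and 48.8% to 56.7% in KO libraries, and all levels below are CPM, counts scaled to the library total after Rn45s was removed. The 10 mESC markers (Pou5f1, Nanog and others) were all detected in every kind of library, and their summed level was 3892 to 4481 CPM in KO libraries and 5683 to 6099 CPM in the H3K27me3 co-assay. In bulk RNA, fewer cells of a type and less RNA per cell cannot be told apart.

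The libraries did not all carry the same Hprt state, which bears on every contrast between kinds of library. E14TG2a is known as a line deficient in Hprt, a purine salvage enzyme on the X chromosome. In 32 libraries, the 28 in vitro and the 4 KO libraries, Hprt had at most 4 counts and at most 2.14 CPM. In the other 22, all unedited SET-seq and ligation libraries, it had 75 to 2934 counts and 66.2 to 485 CPM. Hprt split the libraries exactly by these kinds, so KO and unedited SET-seq libraries differed in Hprt state as well as in Aebp2, and the part of each in the KO contrast cannot be told apart.

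The guide sequences are shown because the KO lines rest on them, and neither the labels nor the methods say which clone came from which guide. Both match the plus strand of Aebp2 in mm9, the build of the count files, with the adjoining PAM in capitals. The site of sgRNA 1 is chr6:140582382-140582401, wholly within a coding exon that 9 of 14 annotated Aebp2 transcripts hold. The site of sgRNA 2 is chr6:140586176-140586195, with 15 bases in a coding exon that 9 of the 14 transcripts hold and 5 bases outside it.
sgRNA 1: attcgctccatacatgtcgaTGG
sgRNA 2: aacaggtgttcgtttgcttgTGG

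Aebp2, a cofactor of the H3K27 methyltransferase complex PRC2, was the targeted gene. It stood at 15.7 and 15.0 CPM in the KO1 replicates and at 49.7 and 30.2 CPM in the KO2 replicates, against 34.7 to 76.0 CPM (n = 6) in the H3K27me3 co-assay. KO1 lay below every one of these co-assay libraries. KO2 overlapped only the 100-cell libraries (38.9 and 34.7 CPM) and lay below those of 1000 and 10000 cells (51.7 to 76.0 CPM). A count over the whole gene does not show a small change at a cut site.

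Promoter windows of the TCF/LEF genes are shown because these factors bind a short motif that can be read in the sequence. RefSeq windows (GRCm38.p6, 250 bases before to 50 after each start) matched 6 of the 7 members by symbol, with 4 windows for Lef1. The core CTTTG with the 4 endings AA, AT, TA and TT was searched on both strands, and 5544 of 32851 windows, 16.9%, held at least 1. Of the members' windows, 1 of 4 for Lef1 and 1 of 2 for Tcf7l2 held a match, and those of Tcf7, Tcf7l1, Ctnnb1 and Gsk3b held none. A search of the first 2 endings alone, also made, matched 8.65% of all windows and none of the members' windows, so both member matches rest on the choice to include the other endings. The first Lef1 window by position, chr3:131110047-131110346 on the plus strand, is printed and holds no match. The second, chr3:131110073-131110372, overlaps it, so the 4 Lef1 windows are not 4 separate promoters. In the last Lef1 window, chr3:131156044-131156343, also plus, the capitals mark TACAAAG, the reverse complement of CTTTGTA, at position -147 from the start. In the Tcf7l2 window shown, chr19:55895071-55895370 on the plus strand, they mark CTTTGTT at position -14. A match describes letters only.
Lef1, first start: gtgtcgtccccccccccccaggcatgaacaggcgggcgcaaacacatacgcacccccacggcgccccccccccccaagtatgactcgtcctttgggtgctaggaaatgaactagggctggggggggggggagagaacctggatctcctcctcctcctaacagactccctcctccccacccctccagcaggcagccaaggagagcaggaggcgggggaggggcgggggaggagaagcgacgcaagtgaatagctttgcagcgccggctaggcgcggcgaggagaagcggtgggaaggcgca
Lef1, last start: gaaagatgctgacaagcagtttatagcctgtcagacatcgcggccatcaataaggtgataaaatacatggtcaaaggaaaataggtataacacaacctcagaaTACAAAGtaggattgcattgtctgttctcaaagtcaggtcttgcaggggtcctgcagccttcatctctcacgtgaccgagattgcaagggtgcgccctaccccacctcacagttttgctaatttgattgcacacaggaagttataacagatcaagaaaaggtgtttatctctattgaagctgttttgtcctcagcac
Tcf7l2: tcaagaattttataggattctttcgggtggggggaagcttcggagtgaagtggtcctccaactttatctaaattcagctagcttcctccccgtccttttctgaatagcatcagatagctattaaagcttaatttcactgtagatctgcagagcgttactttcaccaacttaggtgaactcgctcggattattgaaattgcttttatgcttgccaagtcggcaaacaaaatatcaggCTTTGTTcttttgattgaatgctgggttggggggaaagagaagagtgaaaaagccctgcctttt

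In mm9 the Lef1 locus spans chr3:130813215-130927275 (plus), Tcf7 chr11:52065785-52096516 (minus), Tcf7l1 chr6:72576365-72739039 (minus), Tcf7l2 chr19:55816300-56008145 (plus), Ctnnb1 chr9:120842518-120869625 (plus) and Gsk3b chr16:38089087-38246170 (plus). Counts were over exons. Tcf7l1 shared 2.92% of its exon bases with Gm15401 and Gsk3b 3.12% with BC031361, and the other members shared none.

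Lef1 was the member whose level differed most between kinds of library, and its high levels were not limited to KO cells. Its level was 3.09 to 133 CPM in the 28 in vitro libraries, with a median of 77.2 CPM. It was 75.5 and 71.6 CPM in KO1 and 37.8 and 32.03 CPM in KO2. The KO values lay inside the range of the unedited in vitro libraries.

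Lef1 was low in every library with Hprt. It reached 0 to 15.3 CPM with a median of 3.62 CPM in SET-seq without antibody (n = 8), 2.84 and 3.16 CPM in the ligation libraries, 0.180 to 2.704 CPM in the H3K4me3 co-assay (n = 6) and 0 to 2.37 CPM in the H3K27me3 co-assay (n = 6). The 15.3 CPM value was 3 counts in the second replicate of 1000 cells, whose total without Rn45s was 195539 counts. A count of 0 in the 10-cell SET-seq replicates allowed up to 0.812 and 15.9 CPM (3 counts), so the second of these libraries could not have shown a level as low as those of the co-assays.

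**Figure D1:**
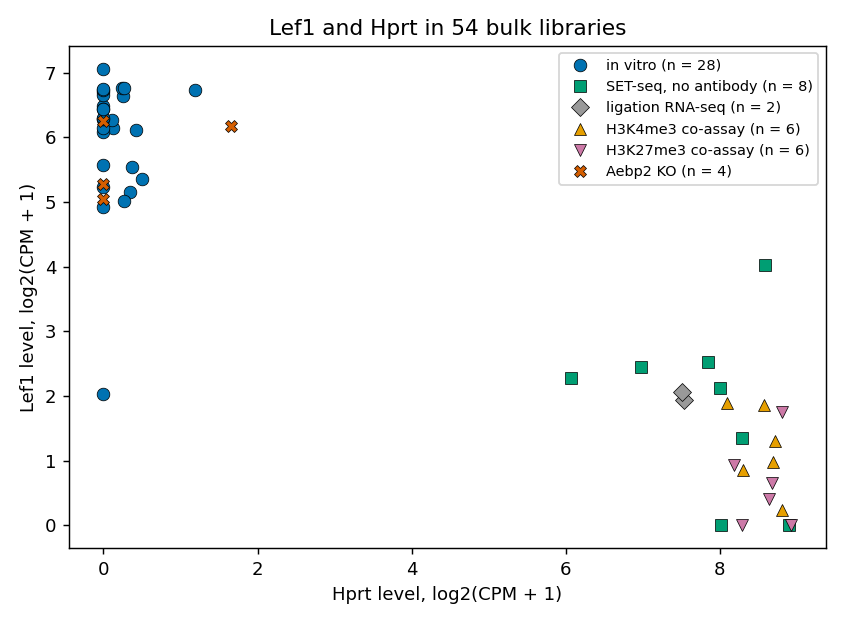
Each point is 1 of 54 bulk libraries, with the Hprt level on the x axis and the Lef1 level on the y axis, both as log2(CPM + 1). The 28 in vitro and 4 KO libraries sit at the left with Hprt at or below 2.14 CPM, and the 22 unedited SET-seq and ligation libraries sit at the right with Lef1 at or below 15.3 CPM.

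Across the 27 conditions, mean log2(CPM + 1) of Lef1 had a Pearson r of -0.94 with that of Hprt and of 0.85 with that of Tcf7l2. The 27 points share libraries by kind and fall into 2 blocks, so these values describe the split and carry no test. Within the 14 in vitro conditions, the r of Lef1 was 0.063 with Hprt, 0.84 with Tcf7l2 and 0.87 with Tcf7. The 14 include the 30 pg condition, where Lef1 was 36.4 and 3.09 CPM, the second value resting on 1 count. The r values without that condition were not computed. Hprt had at most 4 counts in any in vitro library, so its r there cannot show whether the levels are linked. The genes most like Lef1 over the 27 conditions, of 10120 genes with a mean of at least 5 CPM, were Pygl (r = 0.96), Dmgdh (0.94), Ttc28 (0.94), Tfap2a (0.94) and Mid1 (0.94). Mid1, an X-linked ubiquitin ligase, had a median of 498 CPM in vitro and 174 CPM in KO libraries, and at most 11.6 CPM in SET-seq without antibody. For the other members the nearest genes were Cecr2 and Fgd6 (Tcf7), Dgcr2 and Plxna1 (Tcf7l1), Plcl2 and Sox12 (Tcf7l2), Nmt2 (Ctnnb1), Zfp518b and Dicer1 (Apc), and Abl2 and Ddx6 (Gsk3b).

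Against the H3K27me3 co-assay, Lef1, Apc, Tcf7l2, Gsk3b, Tcf7 and Ctnnb1 had higher fitted levels in KO libraries and Tcf7l1 a lower one. In this fit 47.0% of 10495 genes passed an adjusted p of 0.05. The contrast chose the members, so nothing is read from their own p-values. Lef1 had 218 counts over 4 KO libraries and 20 over 6 co-assay libraries, and the fitted log2 fold change was 5.96. The first 100-cell replicate held 14 of those 20 counts, and without it the Lef1 log2 fold change was 7.10. It was 6.35 for KO1 alone, 5.44 for KO2 alone and 4.74 against all 20 unedited SET-seq libraries.

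Tcf7, the activating TCF, had 131 and 85.6 CPM in KO1, 94.4 and 75.6 CPM in KO2, and 44.7 to 84.0 CPM in the co-assay, a log2 fold change of 0.73. Tcf7l1, the repressor, had 130.5 and 99.5 CPM in KO1, 95.4 and 100.5 CPM in KO2, and 77.7 to 223 CPM in the co-assay, a log2 fold change of -0.28. The co-assay range of Tcf7l1 enclosed all 4 KO values, but it spans cell numbers. Its level was 88.7 and 77.7 CPM at 100 cells, 108 and 138 CPM at 1000 and 223 and 198 CPM at 10000. All 4 KO values lay below the 10000-cell libraries, and against those alone the log2 fold change was -0.84. Tcf7l2 had 26.5 and 26.7 CPM in KO1, 24.9 and 6.23 CPM in KO2, and 3.72 to 12.3 CPM in the co-assay, a log2 fold change of 1.45. The second KO2 replicate was alone in falling within the co-assay range.

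Beta-catenin itself had 1089 and 1157 CPM in KO1, 904 and 717 CPM in KO2, and 680 to 890 CPM in the co-assay, a log2 fold change of 0.37. Apc had 337.5 and 379 CPM in KO1, 237 and 202 CPM in KO2, and 44.9 to 88.1 CPM in the co-assay, a log2 fold change of 2.15. Its groups did not overlap, as for Lef1, and the share of all genes without overlap was not computed. Gsk3b had 255 and 271 CPM in KO1, 140 and 133 CPM in KO2, and 98.6 to 138 CPM in the co-assay, a log2 fold change of 0.74. KO1 stood apart from the co-assay for Gsk3b while KO2 lay at its upper edge.

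The choice of control set the direction for Lef1 and Tcf7l2. With 4 unedited in vitro libraries tagmented at 37 C for 5 min as controls (the 37 C 5 min and RNA 300 ng conditions), a comparison added after the data were seen, log2 fold changes in KO libraries were -0.997 for Lef1, -0.42 for Tcf7l2, -0.23 for Tcf7l1, 0.11 for Tcf7, 0.92 for Ctnnb1, 1.44 for Apc and 1.31 for Gsk3b. These controls match the KO libraries in Hprt state but not in method, since they were not made from SET-seq supernatant. Fitted over both clones, Apc, Gsk3b and Ctnnb1 were higher in KO libraries against either set of controls, and Tcf7l1 was lower against either. Both sets also differed from KO libraries in Rn45s. It took 48.8% to 56.7% of counts in KO libraries, 21.9% to 29.7% in the co-assay and 17.4% to 36.0% in these in vitro controls. The part of Rn45s in these differences was not tested. Lef1 and Tcf7l2 were higher against the controls that carried Hprt and lower against those that did not. Against the co-assay, Ctnnb1 and Gsk3b differed by 0.50 and 1.05 in KO1 alone and by 0.15 and 0.23 in KO2 alone.

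**Figure D2:**
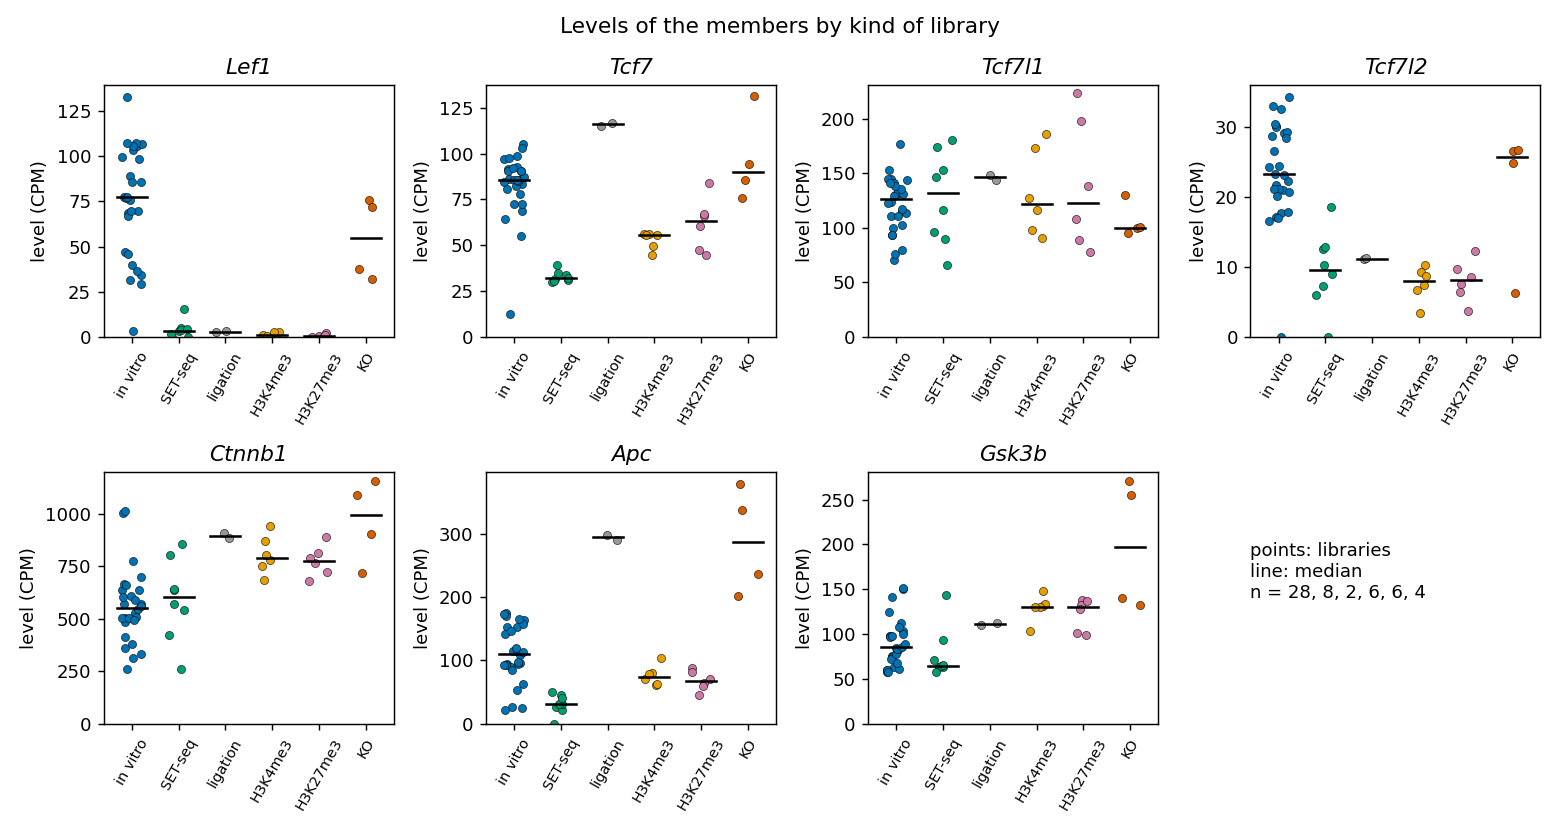
Each panel gives a member's level in CPM, with 1 point per library and a line at the median, for in vitro (n = 28), SET-seq without antibody (n = 8), ligation (n = 2), H3K4me3 co-assay (n = 6), H3K27me3 co-assay (n = 6) and KO libraries (n = 4). Lef1 is high in vitro and in KO libraries, and Apc is highest in KO and ligation libraries.

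Per kilobase of exon, the mean level in the H3K27me3 co-assay fell from Ctnnb1 (214 CPM per kb) through Tcf7l1 (48.2), Tcf7 (22.5), Gsk3b (14.7), Apc (5.36) and Tcf7l2 (1.74) to Lef1 (0.189). In KO libraries the order was Ctnnb1 (267), Tcf7l1 (36.9), Tcf7 (35.4), Gsk3b (23.9), Apc (22.7), Lef1 (14.7) and Tcf7l2 (4.56). In the co-assay the range of Tcf7 overlapped those of both Tcf7l1 and Gsk3b. In KO libraries the ranges of Tcf7l1 and Tcf7 overlapped, Tcf7 overlapped Gsk3b and Apc, and Gsk3b, Apc and Lef1 overlapped each other, so these neighbours are not separated by their spread.

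Other genes of the pathway moved both ways in KO libraries against the co-assay, where 47.0% of all genes passed in either direction. Of 18 destruction complex genes and regulators, 16 were tested, 5 rose and 3 fell, with a median log2 fold change of 0.30 beside -0.02 for all genes, a share called that lies near that of all genes. Amer1, Axin2 and Csnk1e rose by log2 fold changes of 1.45, 1.27 and 1.19, and Gsk3a, Axin1 and Ppp2ca changed by -1.02, -0.51 and -0.37. Of 22 nuclear cofactors, 18 were tested, 11 rose and 2 fell (median 0.69). Chd8, a chromatin remodeller that binds beta-catenin, rose by 2.59, Bcl9 by 2.01 and Crebbp by 1.60, while Cby1, a beta-catenin antagonist, changed by -1.97 and Ctbp1 by -0.66. Of 7 cadherin and catenin partners, 5 were tested and 4 rose (median 0.81), among them E-cadherin (Cdh1, 1.66), Ctnna1 (0.97) and Ctnnd1 (0.81). Of 18 Wnt target genes, 10 were tested and 2 rose, Fzd7 (2.08) and Axin2 (1.27). Of 6 pluripotency genes bound by Tcf7l1, Tbx3 (0.63) and Klf2 (0.50) rose, and Nanog (-0.54) and Tfcp2l1 (-0.52) fell. The edgeR adjusted p of the genes named ran up to 0.0384 (Axin1), and all these contrasts carried the Hprt difference. Of the 10 mESC markers 4 fell and none rose, also near the share of all genes called. The summed level of 5 neuroectoderm markers was 31.8 to 111 CPM in KO libraries and 17.2 to 25.5 CPM in the co-assay. That of 5 mesendoderm markers was 39.1 to 47.7 CPM and 17.7 to 33.9 CPM. That of 7 primitive endoderm markers was 8.56 to 13.9 CPM and 1.49 to 11.6 CPM, and that of 7 fibroblast markers 1.78 to 15.7 CPM and 0.846 to 13.8 CPM, with Dcn and Lum at 0 in both. Of the neuroectoderm markers 2 were tested and 1 rose, and of the mesendoderm markers 2 were tested, 1 rising and 1 falling. In the unedited in vitro libraries, which share the Hprt state of KO, the neuroectoderm sum was 0 to 74.2 CPM. The mesendoderm sum there was 60.7 to 119 CPM. The part of these cell type markers in the counts was not tested.

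The 2 KO clones, which share the Hprt state, differed in 3 of the 7 members. KO1 was higher than KO2 for Gsk3b by a log2 fold change of 0.85 ± 0.17 (SE, edgeR adjusted p = 0.00123), for Apc by 0.61 ± 0.16 (edgeR adjusted p = 0.00962) and for Lef1 by 0.98 ± 0.27 (edgeR adjusted p = 0.019). In this comparison 10.0% of 8551 genes passed. Ctnnb1 (0.37 ± 0.13, edgeR adjusted p = 0.0564), Tcf7l2, Tcf7 and Tcf7l1 did not pass. The Lef1 call was lost with DESeq2 (adjusted p = 0.0974) and without either KO1 replicate or the second KO2 replicate (edgeR adjusted p = 0.118, 0.11 and 0.0851). The Apc call was lost without either KO1 replicate (edgeR adjusted p = 0.0705 and 0.289) and the Gsk3b call without the second KO1 replicate (edgeR adjusted p = 0.0613). Without the first KO2 replicate Ctnnb1 (0.52) and Tcf7l2 (1.95) passed. Among pathway genes, Tnks2, Dvl3, Cdc73, Cdh1 and Nanog were higher in KO1 (log2 fold changes of 0.63, 0.69, 1.27, 0.55 and 0.66), and Hdac1 and Myc lower (-0.893 and -1.004), with edgeR adjusted p up to 0.0454 (Myc).

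All 7 members differed with tagmentation temperature in unedited in vitro libraries, a comparison in which 63.4% of 11788 genes passed. The share of Rn45s moved with temperature, at 11.8% to 25.1% at 16 C and 33.0% to 40.7% at 37 C, and its part in the differences was not tested. At 37 C against 16 C, with time in the fit, Lef1 rose by a log2 fold change of 0.57 ± 0.07 (SE), Tcf7l2 by 0.69 ± 0.10, Apc by 0.65 ± 0.06 and Tcf7 by 0.22 ± 0.07. Tcf7l1 changed by -0.36 ± 0.07, Ctnnb1 by -0.31 ± 0.07 and Gsk3b by -0.19 ± 0.08. The edgeR adjusted p ranged from 1.61e-10 for Apc to 0.0339 for Gsk3b. Lef1 stood at 67.0 to 77.4 CPM in the 8 libraries at 16 C and at 85.8 to 133 CPM in the 8 at 37 C. Ctnnb1 at 16 C was 1005 and 1012 CPM at 5 min and 571 and 547 CPM at 30 min, against 590 and 636 CPM and then 603 and 496 CPM at 37 C. The calls of Tcf7 and Gsk3b were lost when single libraries were left out (edgeR adjusted p = 0.0533 for Tcf7 without the second replicate at 37 C and 10 min, and 0.0534 to 0.0743 for Gsk3b without any 1 of 5 libraries). In the 5 min libraries alone, Tcf7 (0.04) and Tcf7l1 (-0.38) did not pass.

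**Figure D3:**
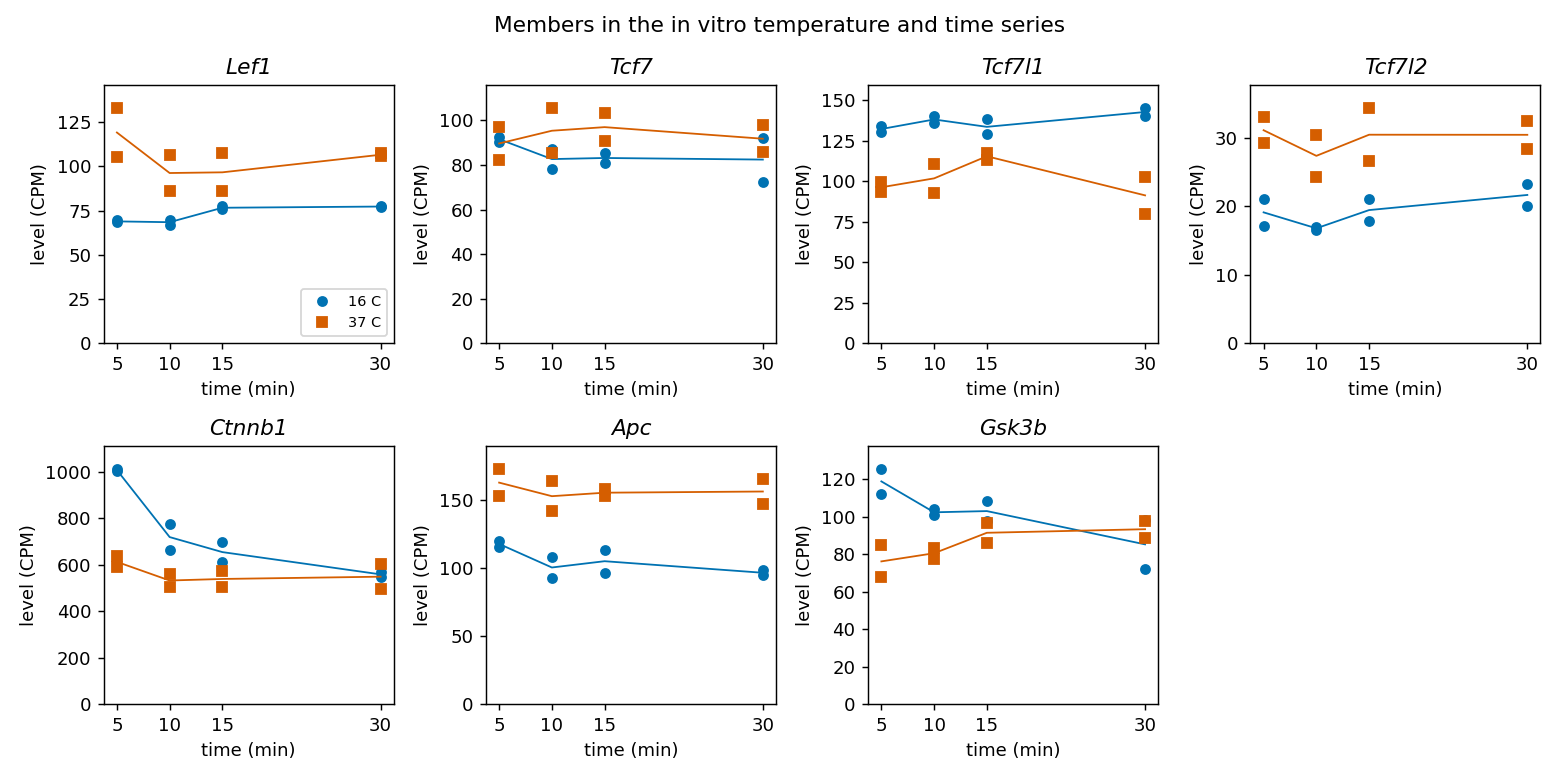
Each panel plots a member's level in CPM against tagmentation time in min at 16 C (circles) and 37 C (squares), with 1 point per library and lines through the means of 2 replicates. Lef1 and Apc lie higher at 37 C at every time, and Ctnnb1 at 16 C goes from 1005 and 1012 CPM at 5 min to 571 and 547 CPM at 30 min.

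With 3 ng against 300 ng of RNA, where 52.6% of 11087 genes passed, Apc rose by 1.48 ± 0.19 (SE, edgeR adjusted p = 7.74e-08) and Gsk3b by 0.78 ± 0.18 (edgeR adjusted p = 0.000565), while Tcf7l1 changed by -1.06 ± 0.19 (edgeR adjusted p = 2e-05). Apc was 174.5 and 170.1 CPM at 3 ng against 62.7 and 52.8 CPM at 300 ng, and Tcf7l1 70.9 and 75.8 CPM against 131 and 153 CPM. Lef1 was 103 and 99.7 CPM at 3 ng and 98.4 and 89.0 CPM at 300 ng (0.01 ± 0.18) and did not pass, nor did Tcf7, Tcf7l2 and Ctnnb1. Rn45s took 78.5% and 84.6% of counts at 3 ng and 18.2% and 17.4% at 300 ng, and its part was not tested. At 30 pg Lef1 was 36.4 and 3.09 CPM, the second value resting on 1 count. Of the pathway lists, 4 of 6 tested cadherin and catenin partners rose and 1 fell, while 1 of 14 Wnt target genes rose and 5 fell. Among the Tcf7l1-bound pluripotency genes Tfcp2l1 rose by 0.71 ± 0.16, and Klf2 and Nr0b1 changed by -0.91 ± 0.16 and -0.81 ± 0.21.

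The Tn5 amount called 0% of 13177 genes at 100 against 25 ng/ul with edgeR, which gave 84 at an unadjusted p under 0.05, and 0 with DESeq2, which gave 37. The replicates differed more than the amounts for Apc, at 94.1, 90.3 and 84.3 CPM in the first and 26.7, 24.7 and 22.4 CPM in the second replicates of 25, 50 and 100 ng/ul. Ctnnb1 likewise had 504 to 639 CPM in the first and 315 to 361 CPM in the second.

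Ligation libraries differed from the 16 in vitro libraries of the temperature series in 81.0% of 12880 genes. Tcf7l2 was lower by a log2 fold change of -1.37 ± 0.12 (SE, edgeR adjusted p = 7.26e-11), Apc higher by 0.93 ± 0.07 (edgeR adjusted p = 5.65e-13) and Ctnnb1 higher by 0.24 ± 0.07 (edgeR adjusted p = 0.00351). Tcf7, Tcf7l1 and Gsk3b did not pass, and Lef1 differed by -5.12, untested.

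SET-seq libraries of 10000 cells against in vitro libraries at 37 C for 5 min differed in 64.4% of 11643 genes. Tcf7l2 changed by -1.46 ± 0.20 (SE, edgeR adjusted p = 1.29e-06), Tcf7 by -0.79 ± 0.13 (edgeR adjusted p = 1.44e-05) and Apc by -0.78 ± 0.13 (edgeR adjusted p = 1.29e-05), and Tcf7l1 rose by 0.56 ± 0.13 (edgeR adjusted p = 0.000621). Ctnnb1 and Gsk3b (0.26 ± 0.12 and 0.24 ± 0.13, edgeR adjusted p = 0.0577 and 0.113) did not pass, though Ctnnb1 did without the first no-antibody replicate (0.34, edgeR adjusted p = 0.00347), without the first H3K4me3 replicate (edgeR adjusted p = 0.0439) and with no low-count filter (edgeR adjusted p = 0.0345). Lef1 differed by -5.97, untested. Ligation and SET-seq libraries carried Hprt and the in vitro libraries did not, so in both contrasts method and Hprt state cannot be told apart. Tcf7l2 was lower and Lef1 was low in both, whereas Apc was higher in ligation and lower in SET-seq libraries. Of 16 Wnt target genes tested in ligation libraries, 4 rose and 10 fell, a share called that lies near that of all genes. Their median log2 fold change was -1.45 beside 0.04 for all genes. In SET-seq libraries 2 rose and 10 fell of 13 tested, with a median of -1.48 beside 0.10. Some other lists moved too. All 6 tested cadherin and catenin partners rose in ligation libraries (median 1.14). In SET-seq libraries, 3 destruction complex genes and regulators rose and 12 fell of 18 tested (median -0.59). Of 19 nuclear cofactors tested there, 3 rose and 12 fell (median -0.47).

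Between the H3K27me3 and H3K4me3 co-assays, 0% of 11616 genes passed with edgeR, with 361 at an unadjusted p under 0.05, and 0 with DESeq2, with 419. Lef1 did not reach the low-count filter, and the other 6 members differed by -0.22 (Apc) to 0.15 (Tcf7), with an SE from 0.06 for Ctnnb1 to 0.36 for Tcf7l2.

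**Figure D4:**
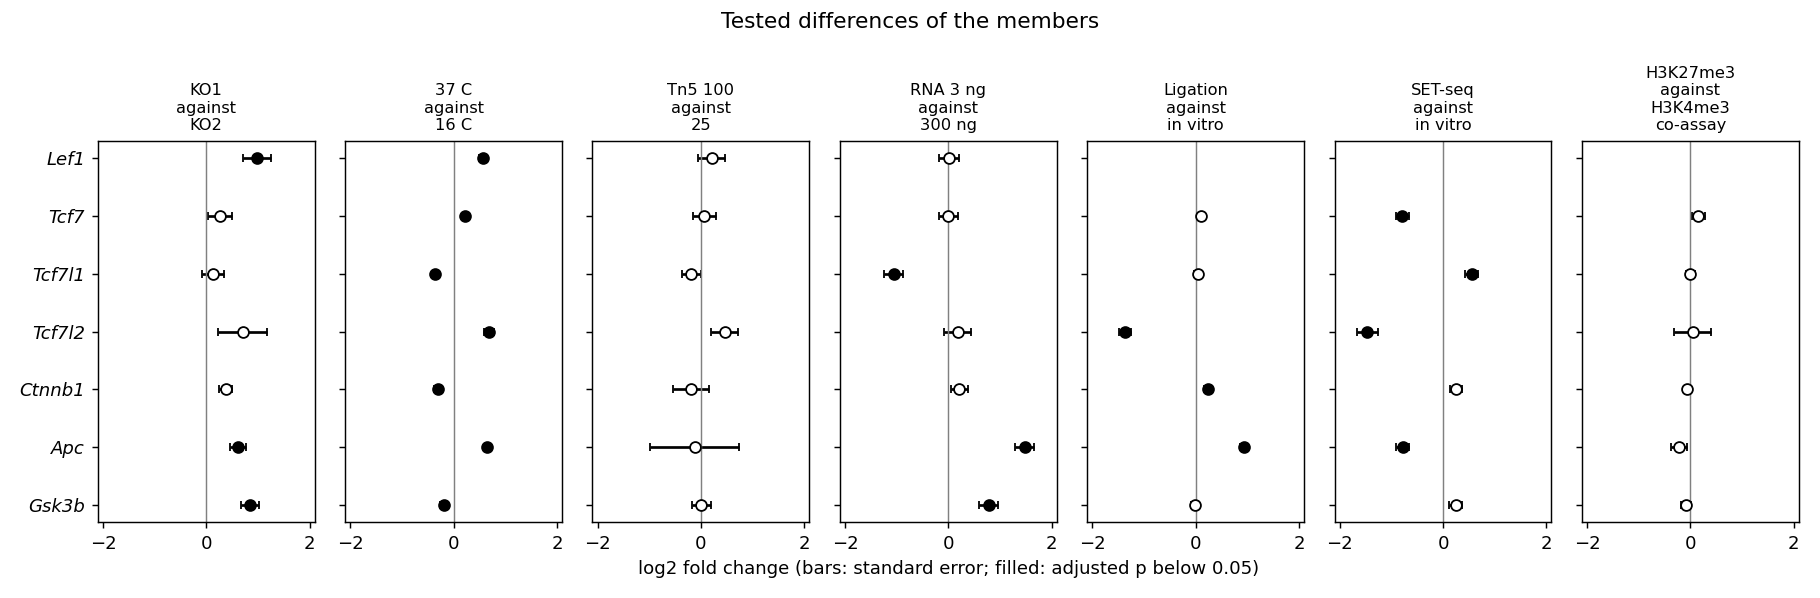
Points are the log2 fold changes of each member in 7 comparisons, with bars for the SE and filled points for an adjusted p below 0.05, and members with no test left out. All 7 are filled for 37 C against 16 C and none for the Tn5 amount or the co-assays.

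In the single cells given Wnt3a beads, no member passed the threshold between cells proximal and distal to the bead, and several members had levels that differed widely between experiments. Of 384 H3K27me3 cells in 10 experiments, 335 passed (over 1000 and under 5000 genes), and of 368 H3K4me3 cells in 6 experiments, 210 passed. Cells carried plate barcodes, 96 distinct in the first and 80 in the second mark, all 80 in both, so a barcode alone does not name a cell. Counts were of reads without molecular identifiers, and the Wilson intervals below cover counting error only.

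Pooled over experiments, the H3K27me3 cells stood apart from bulk libraries. Tcf7l1 had a count in 283 of 335 cells (84.5%, 95% interval 80.2 to 88.0) and reached 775 CPM of summed counts, against 119 CPM in the bulk H3K27me3 co-assay. Its summed level ran from 10.4 CPM in the proximal cells of experiment 7 to 1628 CPM in those of experiment 2. Aebp2 had a count in all 335 cells and took 1.91% of all counts, 19142 CPM against 49.5 CPM in bulk. Ctnnb1 went the other way, in 89 cells (26.6%, 22.1 to 31.5) and at 56.8 CPM against 764 CPM in bulk. Tcf7, Apc, Gsk3b and Tcf7l2 also lay below bulk, and Lef1 lay above it. Of 17621 genes ranked by the level in these cells over bulk, Tcf7l1 stood at percentile 90, Aebp2 at 99 and Ctnnb1 at 12. Tcf7 and Apc ranked below Ctnnb1, so a departure from bulk was not particular to Tcf7l1 and Ctnnb1. Experiments 8, 9 and 10, with 62, 47 and 56 cells, held 2, 0 and 1 of the Ctnnb1 counts. Experiment 3, with 14 cells, held 5707 of the 6226 Ctnnb1 counts, and without it the pooled Ctnnb1 level was 5.21 CPM. The pooled Tcf7l1 level was 698 to 870.2 CPM with any 1 experiment left out. This check was added after the data were seen. Pooling weights experiments by depth, so the Tcf7l1 range does not show the spread between experiments. Tcf7l1 stood at 51.0, 79.5, 59.1 and 21.0 CPM in experiments 3, 4, 5 and 7, below bulk. In the other experiments it stood at 243 to 1529 CPM. The mESC markers in the matrix were found in a median of 31.6% of these cells. By experiment and position, the summed level of these 9 markers ran from 0.368 to 4464 CPM. In the bulk co-assay the 10 markers summed to 5683 to 6099 CPM.

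In H3K4me3 cells Ctnnb1 had a count in 136 of 210 cells (64.8%, 58.1 to 70.9) at 227 CPM, and Tcf7l1 in 102 (48.6%, 41.9 to 55.3) at 56.9 CPM. Experiment 2 held 4315 of 6932 Ctnnb1 counts and 1133 of 1734 Tcf7l1 counts, and without it the levels were 122 and 28.03 CPM. Median depth was 198020 counts in H3K27me3 and 93762.5 in H3K4me3 cells. After thinning to 50000 counts, which left 240 and 162 cells, the shares for Ctnnb1 were 9.58% and 54.9% and for Tcf7l1 92.9% and 34.0%. Thinning left out 95 H3K27me3 and 48 H3K4me3 cells below 50000 counts. Among H3K27me3 cells, experiments 4 and 5, with 15 and 42 cells, held 163624 and 727513 counts in all. The mix of experiments there changed with the depth, so the change in share does not measure depth alone. The marks were run in different experiments, so mark and experiment cannot be told apart.

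Lef1 was sparse in single cells. It had a count in 11 of 335 H3K27me3 cells (3.28%, 1.84 to 5.78), and 884 of its 902 counts lay in 1 proximal cell of experiment 6. In H3K4me3 cells it had a count in 21 of 210 (10.0%, 6.63 to 14.8), and 61.3% of its counts lay in 1 cell. Of the rest, Tcf7l2 was found in 2 and 4 cells, Tcf7 in 12 and 24, Apc in 24 and 41 and Gsk3b in 36 and 52, for H3K27me3 and H3K4me3 in turn.

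Proximal and distal sums, compared with the experiment as a block, gave 0% of 12880 genes past the threshold over both marks, 0% of 11143 for H3K27me3 and 0% of 9102 for H3K4me3 with edgeR, with 1159, 875 and 837 at an unadjusted p under 0.05. With limma on mean log2 values the counts were also 0, with 1276, 678 and 896. Over both marks the log2 fold change, proximal over distal, was 0.86 ± 0.58 (SE) for Ctnnb1, -0.17 ± 0.46 for Tcf7l1 and -0.22 ± 1.37 for Lef1, and errors of this size would hide several-fold differences in Lef1. Apc (1.13 ± 1.05), Gsk3b (-0.92 ± 1.08), Tcf7 (-0.58 ± 1.22) and Tcf7l2 (1.26 ± 1.48) had SEs of similar size. Tcf7l2 did not reach the low-count filter in H3K27me3 cells.

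**Figure D5:**
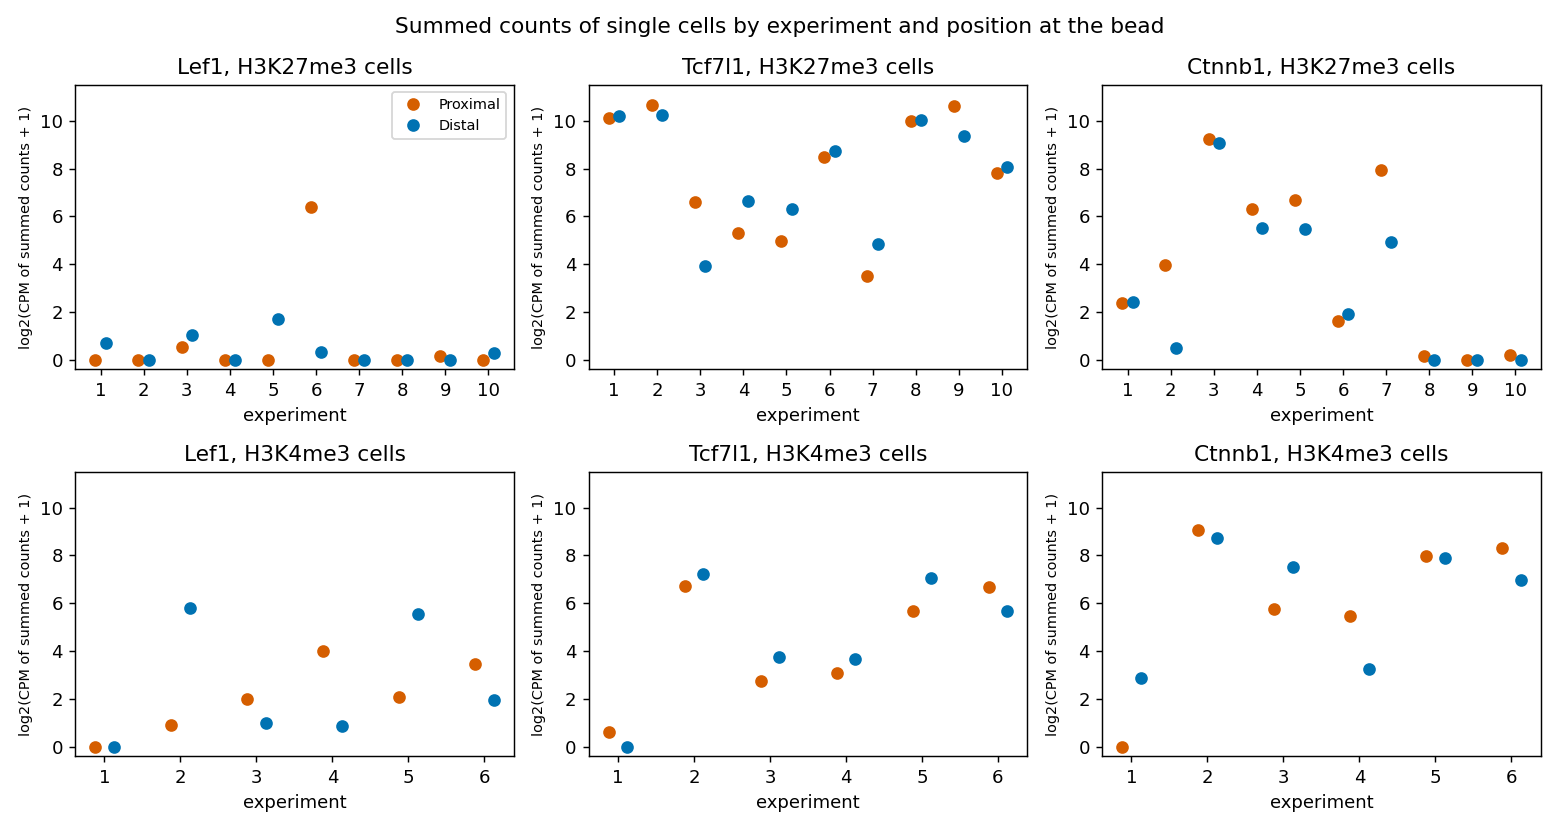
Each panel plots the summed level of a gene as log2(CPM + 1) by experiment, with 1 point for proximal and 1 for distal cells. Tcf7l1 in H3K27me3 cells runs from 10.4 to 1628 CPM between experiments, and the high Lef1 point of experiment 6 rests on 884 counts in 1 cell.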

How the data were processed

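RNA expression was measured in 54 bulk libraries and in single cells. The authors' alignment used STAR and the mm9 build after adapter trimming, featureCounts assigned reads to refGene exons, and the deposited values are raw counts per gene; the single-cell matrices are deposited counts per cell. The submitters' processing notes name Trim Galore 0.6.4, STAR 2.5.4b and featureCounts 2.0.0 and 2.0.1. Totals without Rn45s ran from 188275 to 16888686 counts, which limits low levels in the smallest libraries.

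From the counts, CPM was computed without Rn45s, and comparisons were fitted across all genes with edgeR 4.0.16 (TMM, filterByExpr, quasi-likelihood test, Benjamini-Hochberg adjustment, threshold 0.05; R 4.3.3), with DESeq2 1.42.0 and limma 3.58.1 as alternatives. Single-cell counts were summed per experiment and position, with at least 3 cells in each. Scripts were tested on simulated data. Members and lists were chosen with earlier results of these data known. All 7 members, the targeted gene and Hprt are named, plus up to 3 higher and 3 lower genes per pathway list in the KO contrast, every list gene that passed where 3 or fewer did, and the 5 genes most like Lef1 and 2 most like each other member, of which 1 is not reported here.

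Replicate numbers paired the samples in the Tn5 series only, where deviations of same-numbered libraries correlated at 0.59 to 0.71. With the replicate as a block there, 0 genes passed and 1587 had an unadjusted p under 0.05. Doublets were not called. The 30 pg libraries entered no test.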

Additional observations from a re-analysis of the deposited data

Results flagged for a closer look

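Among 56 sets of a member's levels in groups of 4 to 10 samples, 10 had a sample far from the others, where chance gives about 1 in 20. In KO libraries these were Tcf7l1 in the first KO1 replicate (130.5 CPM, others 95.4 to 100.5) and Tcf7l2 in the second KO2 replicate (6.23 CPM, others 24.9 to 26.7). In SET-seq without antibody, the second 1000-cell replicate was high for Lef1 (15.3 CPM, others up to 4.79) and Gsk3b (143 CPM, others 57.6 to 93.9). At 37 C in vitro, the second 5 min replicate was high for Lef1 (133 CPM, others 85.8 to 107).

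In H3K27me3 cells, experiment 6 was high for Lef1 (40.5 CPM, others up to 1.37), experiment 7 for Tcf7 (7.75 CPM, others up to 2.75) and Apc (35.6 CPM, others up to 12.2), and experiment 3 for Ctnnb1 (569 CPM, others up to 114) and Tcf7l2 (0.698 CPM, all others at 0).

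The clones KO1 and KO2, set against the same controls, differed by a test of the difference itself for Lef1 (0.98), Apc (0.61) and Gsk3b (0.85), as log2 fold changes of KO1 over KO2.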

How the results depend on the processing

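Of 172 alternative counts of genes, 158 stayed within 1.5 times the reported count. With an unadjusted p under 0.05 and a log2 change above 1, KO against the H3K27me3 co-assay gave 2910 genes and KO1 against KO2 531. KO1 against KO2 gave 357 with DESeq2, 182 to 1361 with 1 library left out (its lone partner then assumed to vary like the rest) and 1431 with crossed replicate numbers, added after seeing the data. The 5 min libraries alone gave 3367 genes for 37 C against 16 C. Without a filter, proximal against distal gave 2 genes over both marks, 16 for H3K27me3 and 9 for H3K4me3; with all cells, 9 over both and 16 for H3K4me3; and 0 to 1 for H3K4me3 with 1 experiment left out.

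The replicate block gave 4804 genes for KO against the co-assay, 639 for KO1 against KO2, 7479 for temperature, 6289 for RNA amount, 10455 for ligation, 7381 for SET-seq and 0 for the co-assays; outside the Tn5 series the numbers did not pair the samples.

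Of 1164 alternative fold changes of members, 79 changed sign, 77 of them where neither value passed the threshold. The other 2 were Lef1 (-0.997) and Tcf7l2 (-0.42) in KO against in vitro controls. With a full set of samples, signs changed for Gsk3b in ligation under size factors (0.0148), DESeq2 (0.0147), no filter (0.0413) and Rn45s kept (0.0132), and in Tn5 with no filter (-0.0084); for RNA amount, Lef1 (-0.0553) and Tcf7 (-0.0677) with no filter and Tcf7 under the block (-0.0036); and Tcf7l1 between co-assays under size factors (0.0006). For proximal against distal they changed for Lef1 with at least 5 cells (0.17) and limma (0.0045); in H3K27me3 cells for Lef1 (0.45), Tcf7 (0.27) and Tcf7l1 (0.0507) with at least 5 cells, Tcf7 with limma (0.0424), and Tcf7l1 with no filter (0.079) and all cells (0.17); and in H3K4me3 cells with all cells for Lef1 (-1.27), Ctnnb1 (-0.0673) and Gsk3b (0.27).

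With 1 library left out at a time, the members whose sign changed ranged as follows. In the Tn5 series Lef1 ranged from -0.016 to 0.42, Tcf7 from -0.0951 to 0.23, Ctnnb1 from -0.48 to 0.16, Apc from -1.26 to 0.91 and Gsk3b from -0.0186 to 0.0334. For RNA amount Lef1 ranged from -0.064 to 0.0499, Tcf7 from -0.12 to 0.0825 and Tcf7l2 from -0.0613 to 0.38. For KO1 against KO2 Tcf7 ranged from -0.082 to 0.53 and Tcf7l1 from -0.0744 to 0.31. Gsk3b in ligation ranged from -0.0275 to 0.0428, and between co-assays Tcf7l1 from -0.0538 to 0.0432 and Tcf7l2 from -0.12 to 0.18. With 1 experiment left out, proximal against distal ranged for Lef1 from -0.83 to 0.42 over both marks; in H3K27me3 cells for Lef1 from -1.07 to 0.45, Tcf7 from -0.23 to 0.37 and Tcf7l1 from -0.37 to 0.22; and in H3K4me3 cells for Lef1 from -1.44 to 1.35, Tcf7 from -2.49 to 0.31, Apc from -0.30 to 1.47 and Gsk3b from -0.81 to 0.26. The cause was not tested. In single cells most members had counts in few cells, and their differences carry wide errors.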
